A study of Mus musculus with 9 samples.

Results

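The Egr, Nr4a, Npas4 and Srf genes are activity-regulated transcription factors, and 9 of them (Egr1, Egr2, Egr3, Egr4, Nr4a1, Nr4a2, Nr4a3, Npas4 and Srf) were found by symbol among 52550 genes in the deposited transcript tables of mouse cortex. They were followed in 3 groups of 3 libraries. In the knockdown group (replicates 2, 3 and 4), mice received a locked nucleic acid antisense oligonucleotide against the enhancer RNA eRNA_06347 into the lateral ventricles before the middle cerebral artery was closed with a filament (MCAO, a model of ischemic stroke). The control oligo group (replicates 1, 2 and 3) received a negative control oligonucleotide by the same route before the same MCAO. The sham group (replicates 1, 2 and 3) had the neck incision with no filament and, as far as the labels say, no oligonucleotide. All mice were C57BL/6N males of 9 to 12 weeks, MCAO lasted 1 h, reperfusion lasted 6 h, and the tissue labelled as taken was the infarcted cortex on the side of the occlusion. The sham libraries were reused by the laboratory from data it had made before, so stroke, oligonucleotide, data set and read length cannot be told apart in any comparison with sham. Delivery into the ventricle does not restrict the oligonucleotide to a cell type, and eRNA_06347 itself is not analysed here.

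Activity-regulated transcription factors are switched on in neurons within minutes of calcium entry, without new protein synthesis. Calcium and growth factor signals reach their promoters through SRF, which binds the CArG box with ELK or MRTF cofactors, and through CREB, which binds the cAMP response element (CRE). The proteins made then act on a later set of genes: EGR proteins are zinc finger factors that bind GC-rich sites, NR4A proteins are orphan nuclear receptors that bind the NBRE motif as monomers, and NPAS4 is a neuronal bHLH-PAS factor that responds closely to calcium. In the ischemic brain these genes are known as part of the early transcriptional response, in neurons and, for Egr1 and the Nr4a genes, also in other cells.

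The promoters are shown to look for the elements through which these signals are known to act. RefSeq promoter sequences (GRCm38.p6) matched 7 of the 9 genes: Egr2, Egr4, Nr4a1, Nr4a2, Nr4a3, Npas4 and Srf. The 250 bases before the start site were searched on both strands for the core of the CRE (TGACG), the full CRE (TGACGTCA, which holds the core on each strand), the CArG box, the Egr sites GCGTGGGCG and GCGGGGGCG, and the NBRE (AAAGGTCA). Sequences run 5′ to 3′ on the strand of the gene, and capitals mark a match on either strand (CGTCA is the CRE core read from the other strand). Nr4a1 lies on chromosome 15 and its window is chr15:101266596-101266845 on the plus strand, with 4 CRE cores and 1 Egr site. The Npas4 window is chr19:4989972-4990221 on the minus strand, with 2 CRE cores. The Egr2 window is chr10:67537619-67537868 on the plus strand, with 2 CRE cores and 1 CArG box. The Srf window is chr17:46556163-46556412 on the minus strand, with 2 CArG boxes, 1 CRE core and 1 Egr site.
Nr4a1: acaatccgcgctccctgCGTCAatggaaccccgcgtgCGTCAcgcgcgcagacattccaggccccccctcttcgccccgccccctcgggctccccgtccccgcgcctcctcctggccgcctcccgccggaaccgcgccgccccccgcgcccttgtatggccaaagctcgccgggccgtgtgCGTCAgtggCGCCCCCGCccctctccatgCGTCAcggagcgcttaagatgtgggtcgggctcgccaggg
Npas4: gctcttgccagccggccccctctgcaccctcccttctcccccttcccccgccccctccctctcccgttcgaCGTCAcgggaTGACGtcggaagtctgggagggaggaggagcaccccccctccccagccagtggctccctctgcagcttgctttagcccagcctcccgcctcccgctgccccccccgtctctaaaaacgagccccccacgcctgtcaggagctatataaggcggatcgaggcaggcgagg
Egr2: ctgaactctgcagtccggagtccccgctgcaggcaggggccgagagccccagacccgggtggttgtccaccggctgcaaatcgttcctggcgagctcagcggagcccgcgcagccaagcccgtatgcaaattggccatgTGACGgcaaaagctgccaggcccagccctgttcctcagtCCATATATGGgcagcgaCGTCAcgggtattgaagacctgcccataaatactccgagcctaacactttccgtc
Srf: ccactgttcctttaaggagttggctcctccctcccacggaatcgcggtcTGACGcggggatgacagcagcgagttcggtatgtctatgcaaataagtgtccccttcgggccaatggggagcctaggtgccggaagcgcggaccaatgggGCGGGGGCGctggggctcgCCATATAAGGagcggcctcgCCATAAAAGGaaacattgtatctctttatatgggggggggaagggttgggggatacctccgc

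The CRE core stood in all 7 promoters, against 17.77% of the 32851 promoters of the same length in the RefSeq table. Nr4a2 and Nr4a3 had 4 cores each, as Nr4a1 did, and Egr4 had 2. The Nr4a2 window precedes a RefSeq start that lies 8965 bases from the start of the most abundant deposited Nr4a2 transcript. A CArG box stood in 1.467% of all promoters, and among the 7 it was found in Egr2 and Srf. The Egr site GCGGGGGCG stood in 2.572% of all promoters and in those of Nr4a1 and Srf. The full CRE, GCGTGGGCG and the NBRE were not found in these 7 windows, and they stood in 1.546%, 0.5358% and 1.336% of all promoters. These matches describe letters in the reference sequence, and binding was not measured. The genes are also compact: 7 of the 9 span under 10 kb, against 24.4% of 13847 nuclear protein-coding genes kept, whose median span was 24.7 kb. Nr4a2 and Nr4a3 are the longer ones, at 17.2 and 41.3 kb.

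Levels are given as TPM (a transcript's share of the library, corrected for transcript length and scaled to a fixed sum), summed over the transcripts of a gene. Tests used log2(TPM + 1) in limma with Benjamini-Hochberg adjustment over the 17080 genes with at least 1 TPM in at least 3 libraries, and a call is an adjusted p under 0.05. All 9 genes were kept, and each had at least 1 TPM in all 9 libraries. The libraries held 4.40 to 4.83 gigabases (Gb) assigned to transcripts in knockdown, 4.48 to 4.92 Gb in control oligo and 2.70 to 2.87 Gb in sham. The 10 most abundant genes took 21.6 to 26.3% of TPM in knockdown, 23.0 to 27.8% in control oligo and 58.4 to 63.0% in sham, so a TPM of 1 stands for another share of the messenger RNA in sham. For the 9 genes, each comparison with sham is therefore given on 3 scales: deposited TPM, TPM divided by a median-ratio factor per library, and TPM rescaled to a common sum over nuclear protein-coding genes. Excitatory neuron markers summed to 1374 to 1721 TPM in knockdown, 1317 to 1668 in control oligo and 552 to 654 in sham, and inhibitory neuron markers to 589 to 1117, 822 to 1226 and 417 to 436 TPM in the same groups. These sums are in deposited TPM. After median-ratio scaling, 3 of the 7 excitatory markers were called higher and 2 lower in knockdown than in sham, and 4 higher and 2 lower in control oligo. Of the 6 inhibitory markers, 1 was higher and 1 lower in knockdown, and 2 higher and 0 lower in control oligo. Of all genes on that scale, 22.7% were higher and 27.1% lower in knockdown, and 26.1% and 29.2% in control oligo. In these bulk libraries, fewer cells of a type and less RNA per cell cannot be told apart.

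Egr1 (chr18:34859823-34864984), an EGR factor used as a mark of active neurons, was the most abundant of the 9 in every group. It stood at 110.3, 65.6 and 81.6 TPM in knockdown, 139.5, 86.1 and 140.5 TPM in control oligo, and 44.6, 19.7 and 54.8 TPM in sham libraries. The lowest MCAO library was above the highest sham library, while knockdown and control oligo overlapped. Egr3 (chr14:70077203-70082614), which acts downstream of the same signals in synaptic plasticity, stood at 70.4, 34.9 and 49.5 TPM in knockdown, 60.8, 47.7 and 70.8 TPM in control oligo, and 25.4, 18.5 and 20.1 TPM in sham. Here too every MCAO library was above every sham library, and the MCAO groups overlapped.

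Egr4 (chr6:85511121-85513589), an EGR factor found mainly in the nervous system, stood at 12.1, 9.15 and 9.42 TPM in knockdown, 20.4, 7.09 and 15.3 TPM in control oligo, and 3.48, 1.71 and 4.35 TPM in sham. The control oligo libraries spanned the whole range of the knockdown libraries, and all 6 were above sham. Egr2 (chr10:67535475-67542188), known for its role in Schwann cell myelination and also induced in active neurons, stood at 4.92, 4.32 and 4.25 TPM in knockdown, 8.86, 5.34 and 7.62 TPM in control oligo, and 4.003, 1.74 and 7.84 TPM in sham. Egr2 was the one gene of the 9 whose knockdown and control oligo libraries did not overlap, with knockdown lower, and the sham libraries overlapped with both. Its main transcript, ENSMUST00000048289, did overlap, at 4.85, 4.14 and 4.22 TPM in knockdown and 7.97, 4.72 and 7.61 TPM in control oligo. Another transcript, ENSMUST00000145936, was at 0.570 TPM in control oligo replicate 2 and at 0 in every other library.

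Nr4a1 (chr15:101266846-101274792), also called Nur77, stood at 43.8, 33.3 and 40.0 TPM in knockdown, 70.3, 31.9 and 90.5 TPM in control oligo, and 31.3, 15.9 and 58.1 TPM in sham. The 3 groups overlapped, and the control oligo and sham libraries spread much more than the knockdown libraries. Nr4a2 (chr2:57106830-57124003), also called Nurr1 and needed for dopamine neurons, stood at 20.8, 15.5 and 9.05 TPM in knockdown, 12.9, 17.4 and 7.93 TPM in control oligo, and 13.9, 12.4 and 5.45 TPM in sham. Nr4a3 (chr4:48045153-48086447), also called Nor1, stood at 7.77, 3.95 and 8.11 TPM in knockdown, 4.71, 5.61 and 3.76 TPM in control oligo, and 5.91, 3.80 and 6.43 TPM in sham. Neither of these receptors separated any pair of groups in deposited TPM.

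Npas4 (chr19:4984355-4989971) stood at 25.8, 18.5 and 33.4 TPM in knockdown, 36.5, 20.1 and 62.8 TPM in control oligo, and 6.51, 5.00 and 8.01 TPM in sham. The gap between the MCAO libraries and sham was wide, while the control oligo libraries differed widely among themselves. Srf (chr17:46546839-46556162), the factor upstream of many of the others, stood at 35.9, 33.5 and 28.6 TPM in knockdown, 30.3, 33.2 and 27.9 TPM in control oligo, and 13.0, 11.3 and 13.2 TPM in sham. Srf was the least variable of the 9 in control oligo and in sham, with a coefficient of variation of 8.78% in control oligo and 8.13% in sham. All coordinates are those of the deposited tables (GRCm38/mm10), and all 9 are protein-coding genes. Srf overlaps Gm26904 on the other strand, which reached at most 0.108 TPM, and Mir6976 on its own strand.

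**Figure D1:**
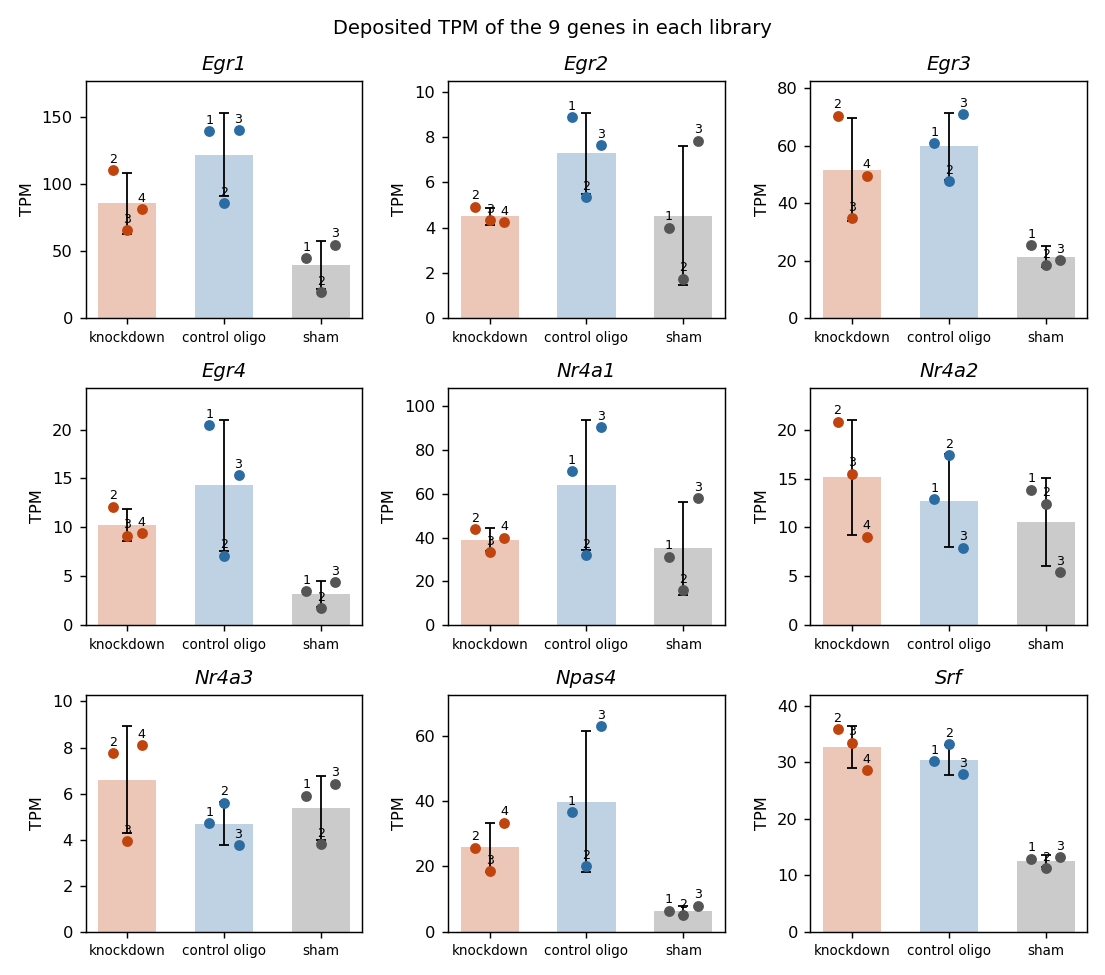
Deposited TPM (linear axis from 0) of each gene in each library, with the replicate number beside each point. Bars are group means and error bars the SD over 3 libraries, from left to right knockdown, control oligo and sham. Egr1, Egr3, Egr4, Npas4 and Srf lie above sham in all 6 MCAO libraries, and Nr4a1, Nr4a2 and Nr4a3 overlap between all groups. After median-ratio scaling, not drawn here, Egr1 overlaps with sham in both MCAO groups, Egr3 in knockdown and Egr4 in control oligo.

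Ordered by mean TPM in knockdown, the genes ran Egr1, Egr3, Nr4a1, Srf, Npas4, Nr4a2, Egr4, Nr4a3 and Egr2, at 85.8 ± 22.7 for the first and 4.50 ± 0.369 for the last (SD, n = 3). The libraries of neighbours in that order overlapped except between Egr4 and Nr4a3. In control oligo the order was Egr1, Nr4a1, Egr3, Npas4, Srf, Egr4, Nr4a2, Egr2 and Nr4a3, with Egr1 at 122 ± 31.1 and Nr4a3 at 4.69 ± 0.927, and neighbours overlapped except between Srf and Egr4. In sham it was Egr1, Nr4a1, Egr3, Srf, Nr4a2, Npas4, Nr4a3, Egr2 and Egr4, with Egr1 at 39.7 ± 18.1 and Egr4 at 3.18 ± 1.35, and neighbours overlapped except between Egr3 and Srf. Npas4 thus stood at rank 5 in knockdown, rank 4 in control oligo and rank 6 in sham, and Egr4 was last in sham.

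The comparison of knockdown with control oligo asks what the knockdown of eRNA_06347 changed after stroke. None of the 9 genes passed the test: 0 were higher and 0 lower, with limma adjusted p = 1 for each. Over all 17080 genes tested, 1 was called higher (0.00585%) and 1 lower (0.00585%), and 321 had an unadjusted p under 0.05. Only Egr2 among the 9 had such a p, with a log2 change of -0.57 (95% interval -1.12 to -0.02). Its means were 4.50 ± 0.369 TPM in knockdown and 7.27 ± 1.79 TPM in control oligo (SD, n = 3 each). Knockdown lay wholly below control oligo for 1.8% of all genes tested, and wholly above it for 3.6%. The count among the 9 was 1 lower and 0 higher. The 1 was Egr2 as a sum over transcripts, and its main transcript overlapped between the groups.

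The intervals for the other genes include 0 and leave room for sizeable differences at this number of libraries. Nr4a1 averaged 39.0 ± 5.29 TPM in knockdown and 64.2 ± 29.8 TPM in control oligo, a log2 change of -0.59 (-1.48 to 0.31). Egr1 averaged 85.8 ± 22.7 TPM in knockdown and 122 ± 31.1 TPM in control oligo, a log2 change of -0.50 (-1.14 to 0.14). Npas4 averaged 25.9 ± 7.46 TPM in knockdown and 39.8 ± 21.5 TPM in control oligo, a log2 change of -0.50 (-1.51 to 0.51). In each of these 3 genes the control oligo libraries overlapped with knockdown and had the larger SD. Relative to the mean, Egr1 spread alike, with a coefficient of variation of 26.4% in knockdown and 25.5% in control oligo. It was 13.5% and 46.4% for Nr4a1, and 28.8% and 54.0% for Npas4, in the same groups.

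The log2 change was -0.34 (-1.24 to 0.55) for Egr4 and -0.25 (-0.92 to 0.42) for Egr3. It was 0.38 (-0.34 to 1.096) for Nr4a3, 0.22 (-0.69 to 1.13) for Nr4a2 and 0.09 (-0.28 to 0.47) for Srf, whose interval was the narrowest of the 9. Thus 6 of the 9 had a value below 0 and 3 above, with a median of -0.34 over the 9 against 0.06 over all genes tested. The signs were the same after median-ratio scaling and in protein-coding TPM, where again 0 genes of the 9 were called in either direction. Of all genes, 0.0117% were called higher and 0.00585% lower after that scaling, and 0.00722% higher and 0% lower in protein-coding TPM.

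The comparison of knockdown with sham and that of control oligo with sham ask what differed in the infarcted cortex, and they share the sham libraries. In deposited TPM, 5 of the 9 were called higher in knockdown than in sham (Egr1, Egr3, Egr4, Npas4 and Srf) and 0 lower, against 52.7% and 12.5% of all genes tested. The same 5 were called higher in control oligo than in sham and 0 lower, against 52.6% and 12.8% of all genes tested. These counts are near the background. For the same 5 genes in each comparison, every sham library lay below every MCAO library, where 57.8% of all genes stood so in knockdown and 56.2% in control oligo, and 14.2% stood the other way in each. After median-ratio scaling Egr1 overlapped with sham in both comparisons, Egr3 in knockdown and Egr4 in control oligo. On that scale Nr4a3 lay wholly below sham in control oligo. The median log2 change over the 9 was 1.18 in knockdown and 1.22 in control oligo, and that over all genes was 0.61 and 0.56, an upward shift that the scaled values below remove.

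Npas4 had the largest change of the 9. Its level was 25.9 ± 7.46 TPM in knockdown against 6.51 ± 1.51 TPM in sham (SD, n = 3 each), a log2 change of 1.82 ± 0.243 (SE) with limma adjusted p = 0.000453. Control oligo stood at 39.8 ± 21.5 TPM against the same sham mean, a log2 change of 2.32 ± 0.362 with limma adjusted p = 0.00067. After median-ratio scaling Npas4 was still called higher, at 1.16 in knockdown (adjusted p = 0.0113, limma) and 1.72 in control oligo (adjusted p = 0.0133, limma), and these calls held without any 1 of the libraries. In protein-coding TPM it was called higher in control oligo (1.14, limma adjusted p = 0.0347), while knockdown was at 0.61 (limma adjusted p = 0.0917).

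Egr4 had a log2 change of 1.47 ± 0.269 in knockdown against sham (limma adjusted p = 0.00201) and 1.82 ± 0.382 in control oligo against sham (limma adjusted p = 0.00315). After median-ratio scaling the values were 0.88 (limma adjusted p = 0.0463) in knockdown and 1.27 (limma adjusted p = 0.0441) in control oligo. Both scaled calls were near the threshold. That in knockdown was lost without any 1 of the knockdown libraries or without sham replicate 1 or 2, and that in control oligo without control oligo replicate 1 or 3 or sham replicate 1 or 2. In protein-coding TPM Egr4 was not called, at 0.39 in knockdown and 0.76 in control oligo.

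Srf had a log2 change of 1.31 ± 0.142 in knockdown against sham (limma adjusted p = 0.000178) and 1.22 ± 0.145 in control oligo against sham (limma adjusted p = 0.000174). Its mean was 32.7 ± 3.72 TPM in knockdown, 30.5 ± 2.67 TPM in control oligo and 12.5 ± 1.02 TPM in sham (SD, n = 3 each). After median-ratio scaling it was 0.63 in knockdown (limma adjusted p = 0.00678) and 0.59 in control oligo (limma adjusted p = 0.00546), and these calls held without any 1 of the libraries. In protein-coding TPM no difference was called, at 0.04 (95% interval -0.30 to 0.38) in knockdown and -0.02 (-0.35 to 0.30) in control oligo.

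Egr3 had a log2 change of 1.19 ± 0.252 in knockdown against sham (limma adjusted p = 0.00405) and 1.44 ± 0.187 in control oligo against sham (limma adjusted p = 0.00027). After median-ratio scaling it was called in control oligo only, at 0.79 (limma adjusted p = 0.0188), with 0.49 (limma adjusted p = 0.128) in knockdown. The scaled call in control oligo was lost without sham replicate 2 (limma adjusted p = 0.0675) or control oligo replicate 1 (limma adjusted p = 0.0544), and knockdown was called without knockdown replicate 3 (0.74, limma adjusted p = 0.0225). In protein-coding TPM Egr3 was called in neither, at -0.11 in knockdown (limma adjusted p = 0.73) and 0.17 in control oligo (limma adjusted p = 0.469). Egr1 had 1.18 ± 0.365 in knockdown (limma adjusted p = 0.0219) and 1.68 ± 0.357 in control oligo (limma adjusted p = 0.00332). The Egr1 call in knockdown was lost without knockdown replicate 2, at 0.98 (limma adjusted p = 0.0712). After median-ratio scaling Egr1 was called in neither, at 0.47 (limma adjusted p = 0.357) in knockdown and 1.03 (limma adjusted p = 0.0771) in control oligo. The scaled value in control oligo was called without control oligo replicate 2 (1.33, limma adjusted p = 0.0443) or sham replicate 3 (1.38, limma adjusted p = 0.0356). In protein-coding TPM Egr1 was at -0.13 in knockdown (limma adjusted p = 0.791) and 0.40 in control oligo (limma adjusted p = 0.406).

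Egr2 and the 3 Nr4a genes were called in neither comparison in deposited TPM, with log2 changes of 0.15 to 0.50 in knockdown and -0.15 to 0.91 in control oligo against sham. Nr4a1, the receptor with the highest level, had 0.32 (95% interval -0.60 to 1.24) in knockdown and 0.91 (-0.19 to 2.01) in control oligo. In control oligo Nr4a1 was called without control oligo replicate 2 (1.34) or without sham replicate 3 (1.35), and Egr2 was called without sham replicate 3 (1.14). Nr4a3 was the one gene called lower under any scaling in both comparisons. It was lower after median-ratio scaling in control oligo (-0.72, limma adjusted p = 0.027) and in protein-coding TPM in both, at -0.98 in knockdown (limma adjusted p = 0.0316) and -1.34 in control oligo (limma adjusted p = 0.0019). Nr4a2 was lower in protein-coding TPM in control oligo (-0.95, limma adjusted p = 0.0429) and not called in knockdown (-0.76, limma adjusted p = 0.119).

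Median-ratio scaling left 3 of the 9 called higher and 0 called lower in knockdown against sham, where 22.7% and 27.1% of all genes tested were called, and 4 were higher in control oligo and 1 lower, where 26.1% and 29.2% were called. In protein-coding TPM, 0 were higher and 1 lower in knockdown, where 8.21% and 47.9% of 13847 genes were called, and 1 was higher and 2 lower in control oligo, where 9.19% and 52% were called. The medians over the 9 after median-ratio scaling were 0.47 in knockdown and 0.59 in control oligo, beside 0.01 over all genes in both. In protein-coding TPM they were -0.13 and -0.02, beside -0.48 and -0.52 over all genes. On each of the 3 scales the median of the 9 genes thus lay above that of all genes. In the authors' FPKM, 3 were higher and 0 lower in knockdown, where 26.1% and 24.6% of all genes were called, and 4 were higher and 1 lower in control oligo, where 28.4% and 26.7% were called.

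**Figure D2:**
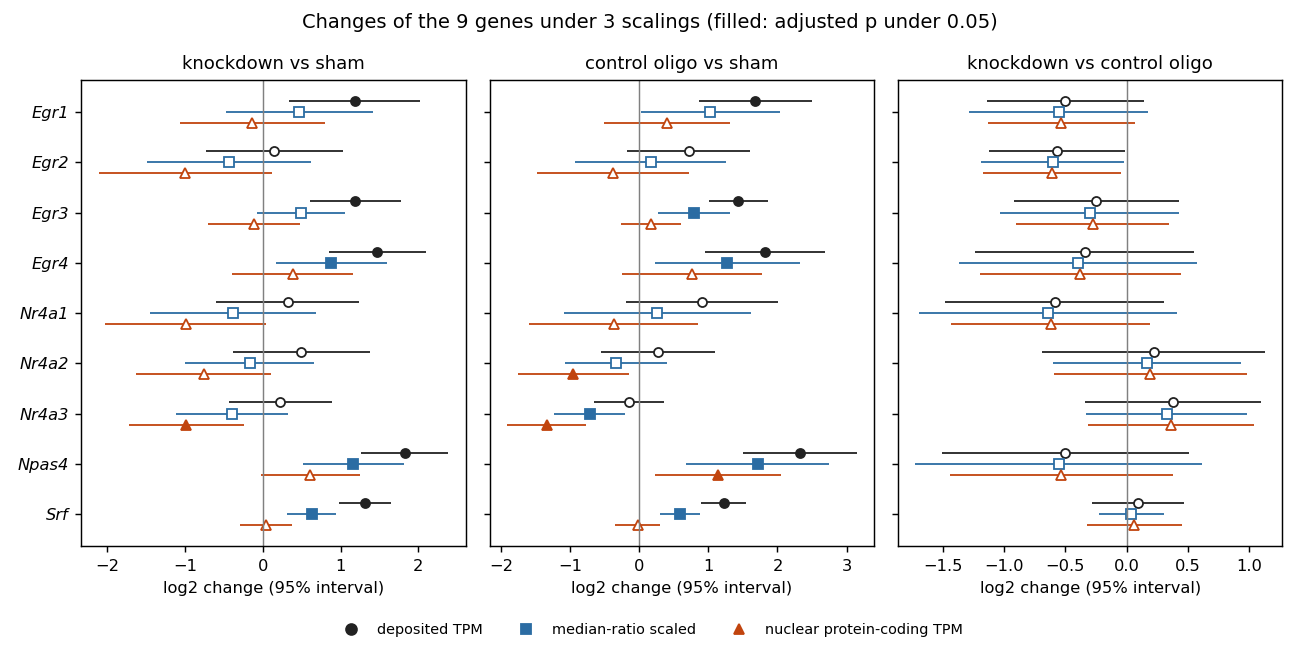
Log2 change of each gene with its 95% interval from limma, in knockdown against sham (left), control oligo against sham (middle) and knockdown against control oligo (right). Symbols give deposited TPM, median-ratio scaled TPM and TPM over nuclear protein-coding genes, filled where the adjusted p is under 0.05. Npas4 is filled on all 3 scales in control oligo against sham, and no symbol is filled on the right.

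A gene's share of the summed TPM of all 9 does not depend on how a library is scaled, and the shares are given as a description. Npas4 took 7.76, 8.46 and 12.7% of this sum in knockdown, 9.51, 7.92 and 14.7% in control oligo and 4.40, 5.55 and 4.49% in sham. Every MCAO library was above every sham library. Nr4a3 took 2.34, 1.81 and 3.07% in knockdown, 1.23, 2.21 and 0.880% in control oligo and 3.99, 4.21 and 3.61% in sham, with every MCAO library below sham. Egr4 took 3.57 to 4.18% in knockdown and 2.79 to 5.32% in control oligo, above the 1.89 to 2.44% in sham. Egr1 took the largest share in most libraries, 30.0 to 33.3% in knockdown, 32.9 to 36.3% in control oligo and 21.8 to 30.7% in sham, and control oligo and sham did not overlap. Nr4a1 took 13.2 to 15.2% in knockdown, 12.5 to 21.2% in control oligo and 17.7 to 32.6% in sham, so that knockdown and sham did not overlap while control oligo reached both. Egr3 and Srf took overlapping shares in the 3 groups, at 15.9 to 21.2% in knockdown, 15.8 to 18.7% in control oligo and 11.3 to 20.5% in sham for Egr3. Relative to each other, then, Npas4 and Egr4 weighed more and Nr4a3 weighed less in the MCAO libraries than in sham. The shares do not remove the uneven coverage along Npas4 and Egr4 that is given below, and its part in them was not tested.

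Coverage along the exons also differed between the MCAO libraries and sham. Npas4, Nr4a1 and Srf have 1 transcript each in the tables and several exons between the first and the last. Over 1172 genes of this kind, the median ratio of coverage in internal exons to that in the last exon was 0.879 to 0.943 in knockdown, 0.801 to 0.949 in control oligo and 1.17 to 1.19 in sham libraries. For Npas4 the ratio was 0.674 to 0.706 in knockdown, 0.641 to 0.803 in control oligo and 1.12 to 1.997 in sham. For Srf it was 0.775 to 0.862 in knockdown, 0.709 to 0.814 in control oligo and 1.38 to 1.51 in sham. Nr4a1 differed less, at 0.669 to 0.821 in knockdown, 0.627 to 0.765 in control oligo and 0.799 to 0.942 in sham.

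For Npas4 the difference from sham was thus uneven along the gene. Coverage per Gb of assigned bases in the last of its 8 exons was 17.8, 13.9 and 25.2 in knockdown, 29.8, 13.02 and 50.7 in control oligo, and 3.73, 2.38 and 6.44 in sham. That of exon 5 was 3.58, 3.51 and 6.64 in knockdown, 5.23, 3.32 and 12.4 in control oligo, and 6.20, 6.75 and 7.52 in sham. The MCAO libraries stood apart from sham in the last exon, and the MCAO groups overlapped there, while in exon 5 the control oligo libraries lay on both sides of sham. The ratio of group means, control oligo over sham, ran over the 8 exons between 1.03 and 7.45, and that of knockdown over sham between 0.670 and 4.54.

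For Srf the ratio of control oligo over sham ran between 0.556 and 2.07 over its 7 exons, and that of knockdown over sham between 0.563 and 2.51. Coverage of its last exon was 23.9, 23.5 and 20.3 per Gb in knockdown, 22.4, 21.9 and 21.5 in control oligo, and 11.4, 9.84 and 12.9 in sham. Coverage of exon 5 was 5.95, 6.13 and 8.21 in knockdown, 6.05, 8.31 and 8.60 in control oligo, and 10.6, 9.46 and 12.2 in sham. The MCAO libraries were thus above sham in the last exon and below it in exon 5 of the same gene. The part of read length and library type in the Npas4 and Srf changes was not tested. For Nr4a1 the ratios stayed between 0.792 and 1.62 in control oligo over sham and between 0.518 and 0.869 in knockdown over sham. The 2 exons of Egr1 gave 1.24 and 2.11 in control oligo over sham, and 0.974 and 1.42 in knockdown over sham. Those of Egr4 gave 12.2 and 2.68 in control oligo over sham, and 10.9 and 1.75 in knockdown over sham. The first exon of Egr4 had a low coverage in sham, at 2.22, 0.757 and 2.34 before division by Gb.

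**Figure D3:**
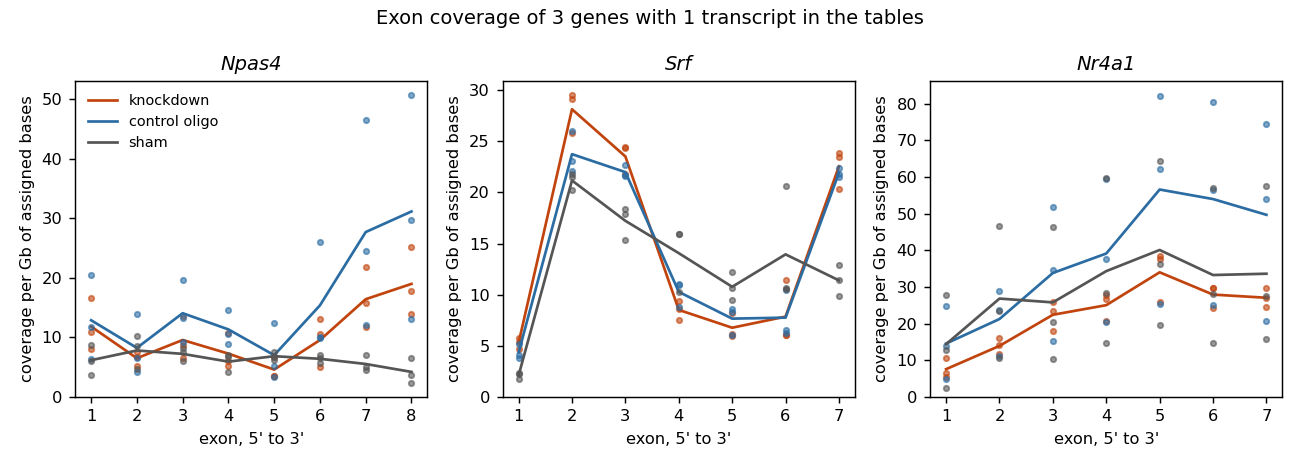
Coverage per Gb of assigned bases in each exon of Npas4, Srf and Nr4a1, numbered 5′ to 3′. Points are libraries and lines the means of knockdown, control oligo and sham. In the last exon of Npas4 and of Srf the MCAO libraries lie above sham, and in exon 5 of Srf they lie below it.

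Over the 6 MCAO libraries, 6 of the genes varied together. The correlations that follow describe these libraries, which share their scaling and fall into 2 groups, and the sets were formed after the values were seen. Among Egr1, Egr2, Egr3, Egr4, Nr4a1 and Npas4, the 15 pairs had a Pearson r of log2(TPM + 1) between 0.59 and 0.93 (n = 6 libraries), and between 0.68 and 0.94 after median-ratio scaling. The highest was that of Nr4a1 with Npas4, at 0.93. Nr4a2, Nr4a3 and Srf did not follow them: the 18 pairs with 1 of these 3 had r between -0.80 and 0.18, and between -0.78 and 0.17 after scaling. For Srf the values shrank after scaling, from -0.80 to -0.29 with Npas4 and from -0.63 to -0.08 with Nr4a1. Nr4a2 and Srf varied together in deposited TPM (r = 0.98), less so after scaling (r = 0.66). The Nr4a family was thus split, with Nr4a1 on the side of the Egr genes and Nr4a2 at r = -0.60 to Nr4a1.

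The same libraries stood low for several genes. Control oligo replicate 2 was the lowest of its group for 6 of the 9 genes, and knockdown replicate 3 the lowest of its group for 6. Sham replicate 2 was the lowest sham library for 8. The 5 neutrophil markers (S100a8, S100a9, Csf3r, Cxcr2 and Mmp9) summed to 68.1, 82.5 and 1323 TPM in knockdown replicates 2, 3 and 4, to 293, 29.7 and 314 TPM in control oligo replicates 1, 2 and 3, and to 3.03 to 8.03 TPM in sham. Of the 5 markers, 1 was listed at 0 in a sham library and none in an MCAO library. All 5 were called higher in control oligo than in sham and 3 in knockdown than in sham, where 52.6% and 52.7% of all genes were higher. After median-ratio scaling 4 were higher in control oligo and 2 in knockdown, where 26.1% and 22.7% of all genes were higher. Control oligo replicate 2 was thus the lowest of its group both in this sum and in Egr4, Nr4a1 and Npas4, while knockdown replicate 3 was lowest of its group for these 3 genes and not in this sum. Knockdown replicate 4, with the highest sum, was the highest of its group for Npas4 and Nr4a3 and not for the other 7 genes. The part of blood cells in these values was not tested. Choroid plexus markers summed to 4.70, 61.1 and 16.3 TPM in knockdown replicates 2, 3 and 4, to 4.07 to 5.91 TPM in control oligo and to 1.01 to 1.35 TPM in sham, so knockdown replicate 3 was the highest library, and the part of that tissue was not tested either.

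**Figure D4:**
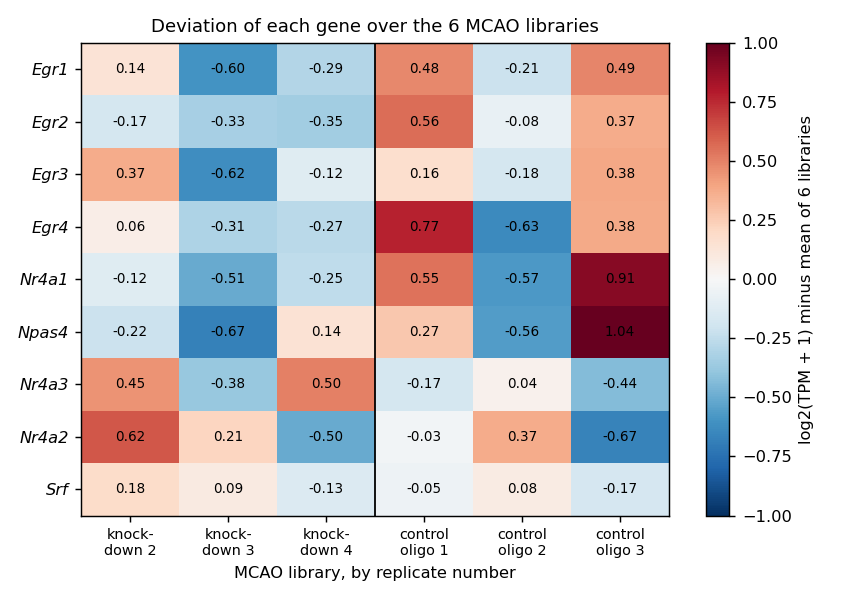
Deviation of log2(TPM + 1) of each gene from its mean over the 6 MCAO libraries, with knockdown left of control oligo (red above the mean, blue below). Egr1 to Egr4, Nr4a1 and Npas4 are above their mean in control oligo replicates 1 and 3. They are below it in knockdown replicate 3 and control oligo replicate 2. In deposited TPM, as drawn, Nr4a2 and Srf run the other way in control oligo replicates 2 and 3. After median-ratio scaling Srf is at 26.4, 26.1 and 26.8 in control oligo replicates 1, 2 and 3.

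The protein-coding genes that followed a given gene most closely over the 6 MCAO libraries were taken from 13836 genes by Pearson r, as a description. For Egr1 they were Pdzph1 (r = 0.96), Sec11a (0.94) and Lrrc32 (0.94). For Nr4a1 they were Paqr6 (0.99), Rps20 (0.97) and Aass (0.96). For Npas4 they were Ccl27b (0.98), Ackr3 (0.98) and Stc1 (0.97). An r over 0.95 was reached by 1 gene for Egr1, 4 for Nr4a1 and 5 for Npas4. With 6 libraries and 13836 genes searched, unrelated genes can reach such values, so no link is read from them. Some of the genes named were low, such as Pdzph1 (1.27 to 3.25 TPM), Aass (1.52 to 3.12 TPM) and Stc1 (0.574 to 5.74 TPM). The r values are for deposited TPM only.

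The genes upstream and downstream of these factors were taken from lists drawn up from their known roles, and are given in deposited TPM and on the median-ratio scale. The counts below stand beside 52.7% of all genes called higher and 12.5% lower in knockdown, and 52.6% and 12.8% in control oligo, in deposited TPM. On the median-ratio scale they stand beside 22.7% and 27.1% in knockdown and 26.1% and 29.2% in control oligo. Of 6 SRF cofactors, 5 were kept, and 4 were higher than in sham in knockdown and 4 in control oligo, with 0 lower in either. On the median-ratio scale 2 were called higher and 1 (Mkl2) lower in each. Mkl1 (MRTF-A, the cofactor that couples SRF to actin) stood at 31.7 ± 1.29 TPM in knockdown, 35.2 ± 9.67 TPM in control oligo and 9.88 ± 1.89 TPM in sham (SD, n = 3 each). Its log2 change was 1.60 in knockdown (limma adjusted p = 0.000136) and 1.71 in control oligo (limma adjusted p = 0.000367), or 0.93 and 1.09 after scaling. Elk1, a ternary complex factor that binds beside SRF, was at 33.1 ± 3.77 TPM in knockdown, 30.2 ± 7.26 TPM in control oligo and 16.0 ± 1.45 TPM in sham. After scaling its log2 change was 0.31 in knockdown (limma adjusted p = 0.0397) and 0.22 in control oligo (limma adjusted p = 0.174), called in knockdown only.

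Of 8 genes of the CREB pathway, all kept, 4 were higher and 2 lower in knockdown than in sham, and 5 higher and 2 lower in control oligo. After scaling it was 4 and 3 in each. Creb1, which encodes CREB itself, was lower, at 8.93 ± 4.48 TPM in knockdown and 10.6 ± 1.49 TPM in control oligo against 25.9 ± 4.36 TPM in sham (SD, n = 3 each). Its log2 change was -1.52 in knockdown (limma adjusted p = 0.00359) and -1.21 in control oligo (limma adjusted p = 0.000525), or -2.20 and -1.85 after scaling. Crebbp, the CREB-binding acetyltransferase, was also lower, at 9.77 ± 1.74 TPM in knockdown and 10.4 ± 2.93 TPM in control oligo against 20.7 ± 6.81 TPM in sham, and Ep300, its relative, was lower after scaling, at -0.78 in each. The genes called higher included the CREB coactivators of the CRTC family: Crtc2 stood at 34.3 ± 14.5 TPM in knockdown, 34.0 ± 8.18 TPM in control oligo and 5.06 ± 0.512 TPM in sham. Its log2 change was 2.47 in knockdown (limma adjusted p = 0.00017) and 2.51 in control oligo (limma adjusted p = 2.59e-05), or 1.83 and 1.91 after scaling. Crtc1 stood at 38.3 ± 4.45 TPM in knockdown, 41.2 ± 7.63 TPM in control oligo and 11.8 ± 2.90 TPM in sham, and it too was called on both scales.

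Of 7 partners and corepressors, all kept, 4 were higher and 0 lower in each comparison, and 2 higher and 1 (Nab1) lower after scaling. Nab2, a corepressor that EGR proteins induce and that then holds them back, stood at 76.1 ± 31.7 TPM in knockdown, 65.6 ± 16.8 TPM in control oligo and 14.4 ± 2.60 TPM in sham. Its log2 change was 2.26 in knockdown (limma adjusted p = 0.000298) and 2.09 in control oligo (limma adjusted p = 0.000107), or 1.57 and 1.45 after scaling. Rxrb, a retinoid receptor of the RXR family, with which Nr4a1 and Nr4a2 can pair, had 1.099 in knockdown and 1.05 in control oligo, or 0.40 and 0.41 after scaling.

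Of 18 other rapid activity genes, all kept, 16 were higher and 0 lower in each comparison in deposited TPM, where 52.7% and 52.6% of all genes were higher. After scaling 10 were higher and 0 lower in knockdown, and 10 higher and 1 lower (Fbxo33) in control oligo. Their median log2 change was 1.66 in knockdown and 1.75 in control oligo, beside 1.18 and 1.22 for the 9 genes above. Maff, a small MAF factor, stood at 19.6 ± 1.14 TPM in knockdown, 21.1 ± 5.63 TPM in control oligo and 0.316 ± 0.150 TPM in sham, a log2 change of 3.97 in knockdown (limma adjusted p = 2.86e-06) and 4.04 in control oligo (limma adjusted p = 4.46e-06). Gadd45g, a stress-induced growth arrest gene, stood at 88.9 ± 5.99 TPM in knockdown, 83.2 ± 17.6 TPM in control oligo and 4.98 ± 1.45 TPM in sham. Each of these changes was larger than that of Npas4.

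Of 13 delayed activity genes, many of which encode proteins that act at synapses or are secreted, all were kept. Against sham, 7 were higher and 3 lower in knockdown, and 8 higher and 2 lower in control oligo. After scaling 2 were higher and 3 lower in each. Nptx2, a pentraxin that gathers AMPA receptors, stood at 161 ± 35.6 TPM in knockdown, 196 ± 81.5 TPM in control oligo and 22.04 ± 4.13 TPM in sham, with scaled log2 changes of 2.11 (limma adjusted p = 0.00032) and 2.37 (limma adjusted p = 0.00106). Pcsk1, a protease that processes neuropeptide precursors, was lower, at 16.2 ± 3.80 TPM in knockdown and 16.9 ± 0.253 TPM in control oligo against 28.6 ± 3.12 TPM in sham. Its log2 change was -0.80 in knockdown (limma adjusted p = 0.00635) and -0.72 in control oligo (limma adjusted p = 0.00231). Homer1, a postsynaptic scaffold protein, was lower too, at 90.2 ± 15.1 TPM in knockdown and 85.02 ± 17.0 TPM in control oligo against 152 ± 30.3 TPM in sham.

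Of 17 cytoskeletal genes known as SRF targets, 16 were kept; 16 were higher in knockdown than in sham and 14 in control oligo, with 0 lower, where 52.7% and 52.6% of all genes were higher. After scaling 4 were higher and 0 lower in knockdown, and 6 higher and 1 lower (Actb) in control oligo, near the 22.7% and 26.1% of all genes called higher. Zyx (zyxin, a focal adhesion protein) stood at 56.2 ± 8.59 TPM in knockdown, 49.3 ± 18.3 TPM in control oligo and 6.22 ± 0.731 TPM in sham, with scaled log2 changes of 2.32 (limma adjusted p = 6.16e-05) and 2.12 (limma adjusted p = 0.000317). In knockdown against control oligo, 0 genes of these 6 lists were called in either direction. Of their genes, 2 had an unadjusted p under 0.05 there, Gadd45b (log2 change 0.33, limma adjusted p = 1) and Actb (0.42, limma adjusted p = 1).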

How the data were processed

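Per the submitters' processing notes, the authors aligned reads with HISAT2 2.0 and quantified them with StringTie 1.3 on GRCm38/mm10. Per the file headers this was StringTie 1.3.4d on a merged annotation with no strand option, so overlapping genes on opposite strands share uncertain values. The deposited values, per transcript, are coverage, FPKM and TPM for 131100 transcripts. From these, TPM was summed per gene and tested as log2(TPM + 1) by the trend method of limma 3.58.1 in R 4.3.3, which understates the change of genes at low TPM. Each comparison had its own fit on 6 libraries, with no covariate, and Benjamini-Hochberg adjustment over all 17080 genes kept. The fit was tested on simulated data. No count test was run on these units. Assigned bases are coverage times exon length. Precision is that of 3 libraries a group, and whether these are separate animals pooled or not is not given in the sources used here. Alternatives were FPKM, a pseudocount of 0.1, no filter, a filter at 5 TPM, median-ratio scaling, protein-coding TPM, a fit on all 9 libraries, a replicate block and leaving out each library. Same-numbered libraries did not deviate together in control oligo and sham (r = -0.03, -0.07 and 0.12) or in knockdown and sham (-0.06 and 0.07), and the 2 numbers shared by knockdown and control oligo gave 0.23 and 0.07, so the numbers were not taken as pairs. The genes, the 6 lists of pathway genes and the cell type markers were chosen with earlier results of these data known. All 9 genes were named in every comparison, with up to 4 list genes of the smallest p. Other list genes called lower were named after their values were seen. Parsing and plots used Python 3.11.15, pandas 2.3.3, numpy 2.4.6 and matplotlib 3.10.9.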

Additional observations from a re-analysis of the deposited data

How the results depend on the processing

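The scale moved the calls against sham, and the cause was not tested. Genes called higher in knockdown against sham numbered 4457 in FPKM, 3883 after median-ratio scaling and 1137 in protein-coding TPM, and genes called lower numbered 4208, 4629 and 6629. In control oligo against sham 4854, 4456 and 1273 were called higher and 4562, 4983 and 7202 lower. Of the 9 genes, 3, 3 and 0 were higher in knockdown on these scales and 1 was lower in protein-coding TPM. In control oligo 1 was higher in protein-coding TPM, and 1, 1 and 2 were lower. With no filter the lower calls were 3982 in knockdown and 3934 in control oligo, and at a filter of 5 TPM they were 1346 and 1344, where other numbers of genes were tested.

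Some log2 changes turned sign with the scale. In knockdown against sham, in FPKM, scaled and protein-coding TPM, Egr2 was at -0.34, -0.44 and -0.996, Nr4a1 at -0.29, -0.38 and -0.99, Nr4a2 at -0.0792, -0.17 and -0.76, and Nr4a3 at -0.28, -0.39 and -0.98. In protein-coding TPM Egr1 was at -0.13 and Egr3 at -0.11. In control oligo against sham Nr4a2 was at -0.26, -0.33 and -0.95 on the 3 scales. In protein-coding TPM Egr2 was at -0.39, Nr4a1 at -0.37 and Srf at -0.024.

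Leaving out 1 library gave 7328 to 9814 genes higher and 1716 to 2354 lower in knockdown against sham, 7461 to 9572 and 1747 to 2537 in control oligo against sham, and 0 to 2 and 1 in knockdown against control oligo. Of the 9 genes, 4 to 5 were higher in knockdown and 5 to 7 in control oligo than in sham. Leaving out libraries after scaling was an alternative chosen after seeing the data. There 2 to 3 were higher in knockdown, and 2 to 5 higher and 0 to 1 lower in control oligo. The 2 stood without control oligo replicate 1 or sham replicate 2. The Nr4a3 call was lost without control oligo replicate 1 or 3 or sham replicate 1 or 3. Log2 changes that turned ran as follows. In knockdown against control oligo Egr3 ran from -0.4951 to 0.0018, and Nr4a2 from -0.0596 to 0.527 (scaled -0.0497 to 0.4412). In knockdown against sham Egr2 ran from -0.2767 to 0.5676 (scaled -0.9155 to 0.0598), Nr4a1 from -0.1342 to 0.7667 (scaled -0.8703 to 0.1283), and scaled Nr4a2 from -0.499 to 0.1069. In control oligo against sham Nr4a2 ran from -0.1015 to 0.5564, scaled Egr2 from -0.3123 to 0.663, and scaled Nr4a1 from -0.2283 to 0.7703. Sham replicates 2 and 3 set the ends of the Egr2 and Nr4a1 ranges.

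With the replicate number as a block, 5 of the 9 genes were higher in knockdown than in sham, with Nr4a2 (1.03, limma adjusted p = 0.00844) in place of Egr1 (1.34, limma adjusted p = 0.0537), and 7 in control oligo, with Egr2 and Nr4a1 added. In knockdown against control oligo the block left 0 genes called in either direction and Egr4 at 0.0053. The other counts there were 2 higher at a pseudocount of 0.1, 2 at a filter of 5 TPM, 2 after scaling, 3 in the fit on all 9 libraries, and 0 lower in protein-coding TPM.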

Other observations

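The transcripts behind the gene sums differed in how steady they were. Egr1 came from 1 of its 2 listed transcripts in every library, and ENSMUST00000225200 held 84.5 to 90.2% of Egr3 in knockdown, 86.3 to 88.0% in control oligo and 83.1 to 87.0% in sham. Nr4a2 has 6 listed transcripts that share most exons. ENSMUST00000028166 held 7.997, 67.8 and 47.5% of Nr4a2 in knockdown, 13.4, 67.8 and 62.8% in control oligo and 20.1, 15.7 and 8.95% in sham. ENSMUST00000112629 held 70.6, 0 and 12.1% in knockdown, 57.3, 0 and 33.6% in control oligo and 17.9, 0 and 16.6% in sham. The values of single Nr4a2 transcripts thus differed between libraries of 1 group by more than between groups, and Nr4a2 levels were tested only as a sum. The promoter window of Nr4a2 was chosen by its most abundant transcript, and that choice shares this unsteadiness.

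Other cell type markers are given as summed deposited TPM. On that scale 57.8% of all genes lay wholly above sham in knockdown and 56.2% in control oligo. After median-ratio scaling 22.7% of all genes were called higher and 27.1% lower in knockdown, and 26.1% and 29.2% in control oligo. The 5 astrocyte genes were at 632 to 747 in knockdown, 682 to 765 in control oligo and 651 to 737 in sham. The 5 microglial genes were at 206 to 387, 199 to 220 and 112 to 132 in the same groups. Endothelial markers summed to 94.8 to 218 in knockdown, 86.0 to 136 in control oligo and 48.1 to 54.5 in sham. Oligodendrocyte markers summed to 1026 to 1210 in knockdown, 908 to 1360 in control oligo and 553 to 776 in sham, and pericyte and smooth muscle markers to 61.8 to 114 in knockdown, 56.9 to 72.3 in control oligo and 52.5 to 61.1 in sham. Monocyte and macrophage markers summed to 70.0 to 663 in knockdown, 70.8 to 169 in control oligo and 12.3 to 24.7 in sham, and 5 lymphocyte markers to at most 0.657, 0.780 and 0.187. Striatal markers summed to 95.5 to 209.8 in knockdown, 158.5 to 184 in control oligo and 42.8 to 54.3 in sham. After median-ratio scaling, astrocyte markers had 0 higher and 1 lower than in sham in knockdown, and 1 and 2 in control oligo. In the same order, microglial markers had 1 and 1, then 2 and 1, and endothelial markers 2 and 0, then 2 and 1. Pericyte and smooth muscle markers had 1 and 1, then 1 and 2, and monocyte and macrophage markers 1 and 0, then 2 and 1. Oligodendrocyte markers had 1 and 1 in each comparison, and striatal markers 3 and 1.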
